A study of Caenorhabditis elegans with 2 samples.

Results

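The 10 genes mex-1, mex-3, mex-5, mex-6, pos-1, pie-1, spn-4, oma-1, oma-2 and nos-3 encode maternal RNA-binding proteins of the early Caenorhabditis elegans embryo, and are 10 of the 19973 nuclear protein-coding genes of the annotation. They were selected on their names and with peak values of these same lists in view, so every peak value of theirs is a description, given without a test. The peaks come from chromatin immunoprecipitation and sequencing of CEH-2, a homeodomain protein, in hermaphrodite embryos of strain OP323. That transgenic line stably expresses CEH-2 with GFP and FLAG at its C terminus, and the precipitation used an antibody against GFP. Embryos labelled late embryonic were collected whole, 5 hours after synchronization by egg bleaching, as 1 group of 2 biological replicates that both carry the fusion. There is no second group, and the control behind the peak calls was not analysed here.

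Most of the 10 proteins are known to act on mRNAs that the oocyte supplies, before the embryo's own genes are widely transcribed. Most bind untranslated regions and help set where and when a maternal mRNA is translated or destroyed, and thereby which early blastomere takes which fate. MEX-1, MEX-5, MEX-6, POS-1, PIE-1, OMA-1 and OMA-2 carry CCCH zinc fingers, MEX-3 carries KH domains, SPN-4 has an RNA recognition motif and NOS-3 is a Nanos family protein. The data give no level of their RNA or protein. They show where immunoprecipitated chromatin gathered near the genes, pooled over all cells of the embryo, so that few cells with strong binding and many with weak binding cannot be told apart.

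The deposited lists are a relaxed list for each replicate, which deliberately holds background as well as peaks, a relaxed list from pooled reads, and the optimal set that the authors kept by irreproducible discovery rate (IDR), referred to below as the reproducible set. The relaxed lists hold 18431 peaks for replicate 1, 15188 for replicate 2 and 16046 for the pooled reads, and the reproducible set holds 1453. Its members are the pooled peaks whose signal was 86.3 or more. Signal is the authors' own value per peak. Its scale is unknown, so it is compared only within a list, where rank 1 is the strongest. The lists carry no read counts, so the depth behind a value is unknown. The promoter windows of a gene cover the 1000 bp before and the 200 bp after each of its transcript starts. A summit, the highest point of a peak, was given to every gene whose window held it. Positions are on ce11.

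The reproducible set held a promoter summit for mex-1, nos-3 and spn-4, 3 of the 10 genes, where 5.97% of all protein-coding genes have one. The stretches of genome under these summits are printed because all 3 also lie in front of a neighbouring gene that is transcribed the other way. They were read from the RefSeq genome of WBcel235, the assembly of ce11, 5′ to 3′ on the strand of the maternal gene. The mex-1 stretch is chrII:11967648-11967848 on the plus strand, the spn-4 stretch chrV:6785208-6785408 on the minus strand, and the nos-3 stretch chrII:9746135-9746315 on the plus strand, which ends at the last base before the first nos-3 transcript. Capitals mark the 11 bases centred on the summit.
mex-1: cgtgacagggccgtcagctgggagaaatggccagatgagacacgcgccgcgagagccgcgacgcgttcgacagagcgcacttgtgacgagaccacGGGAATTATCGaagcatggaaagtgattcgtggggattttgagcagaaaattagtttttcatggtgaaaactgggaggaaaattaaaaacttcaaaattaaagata
spn-4: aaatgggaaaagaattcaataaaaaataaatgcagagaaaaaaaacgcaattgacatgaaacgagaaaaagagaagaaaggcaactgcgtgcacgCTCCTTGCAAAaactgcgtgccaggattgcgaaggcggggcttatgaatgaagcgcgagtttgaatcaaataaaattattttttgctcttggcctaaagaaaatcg
nos-3: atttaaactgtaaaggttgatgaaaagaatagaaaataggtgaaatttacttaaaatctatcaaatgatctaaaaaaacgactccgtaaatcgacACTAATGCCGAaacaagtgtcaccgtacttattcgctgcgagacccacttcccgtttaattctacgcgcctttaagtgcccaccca

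GC content near the summit was lower at nos-3 than at mex-1 and spn-4. Within 50 bp of the summit, GC content was 50.5% at mex-1, 50.5% at spn-4 and 40.6% at nos-3, where the median of the 1430 nuclear reproducible summits is 49.5%. At 89.0% of those summits GC was at least as high as at nos-3. The homeodomain cores TAATTA and TAATGA and the 6-mers GAGAGA and GGCCAC, known from an earlier analysis of these peaks, were searched on both strands. TAATTA lies within 50 bp of 2.17% of reproducible summits, TAATGA of 1.54%, GAGAGA of 24.5% and GGCCAC of 13.99%. None of the 4 occurs in the printed stretches of mex-1, spn-4 and nos-3, which are wider and reach up to 100 bp to each side of the summit. This says only that these letters are not in these stretches.

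The strongest summit by far belonged to the window of mex-1, whose CCCH protein is needed for germline proteins and granules to reach the correct blastomeres. It lay at 11967748 on chromosome II, 889 bp upstream of the gene start, with a pooled signal of 425 and rank 31 of the 1453 reproducible peaks. Replicate 1 had its summit at the same base, with a signal of 198 and rank 33, and replicate 2 had it 2 bp away, with 225 and rank 35. Both replicates thus placed it near the top of their lists. With each gene ranked by its highest reproducible promoter summit, mex-1 was in place 32 of 1192 genes. W03C9.5 and rab-7, which encodes a small GTPase of late endosomes, shared the summit and therefore the place. The start of W03C9.5, which is transcribed away from mex-1, was nearer, at 204 bp.

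At nos-3, whose Nanos protein works with other translational repressors in the germline, the summit lay at 9746235 on chromosome II, 81 bp upstream of the first of 5 transcript starts. Its pooled signal was 104, rank 1044 of 1453. Replicate 1 had 55.4 at rank 952 and replicate 2 had 52.4 at rank 1139, with summits 48 bp apart. The replicates gave nos-3 much the same place, in the weaker part of the set. Y53C12B.1, transcribed away from nos-3 across a gap of 237 bp, shared the summit. The nearer start was that of nos-3 for the pooled and replicate 1 summits, and that of Y53C12B.1, at 117 bp against 121 bp, for the replicate 2 summit. A second summit, 120 bp inside the gene in its 5′ UTR, had a pooled signal of 29.5. Replicate 2 listed it at 105 bp with 20.4, and the list of replicate 1 and the reproducible set did not hold it.

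The spn-4 summit was placed differently by the replicates. SPN-4 binds maternal mRNAs such as those of glp-1 and skn-1 in early blastomeres. The summit lay at 6785308 on chromosome V, 405 bp upstream, with a pooled signal of 97.5 and rank 1157. Replicate 2 gave it 68.7 at rank 684 and replicate 1 gave it 28.3 at rank 3939, well outside the 1453 strongest peaks of that replicate. The larger of its ranks was 5.76 times the smaller, and 18 of the 1428 nuclear reproducible peaks found in both replicates, or 1.26%, had a ratio as large. Only 9 of the 1428 ranked as low in replicate 1. The median ratio over these peaks was 1.48, and it was 1.06 for mex-1 and 1.20 for nos-3. The window of spn-4 is shared with spe-39, a gene of vesicle trafficking and sperm development that starts 143 bp from the summit on the other side of a gap of 547 bp.

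**Figure D1:**
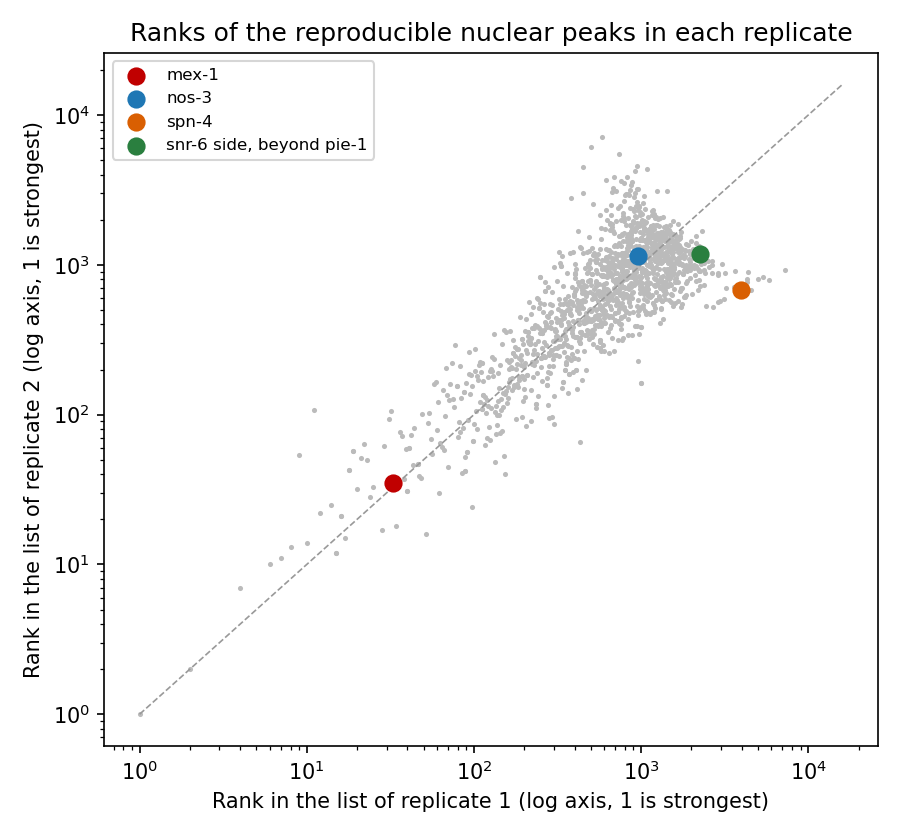
Each point is 1 of the 1428 nuclear reproducible peaks found in both replicates, by its rank in the list of replicate 1 and of replicate 2 (log axes, 1 is the strongest), and the dashed line marks equal ranks. mex-1 (33 and 35) and nos-3 (952 and 1139) lie near the line, while spn-4 (3939 and 684) lies at the edge of the cloud and the peak beyond the end of pie-1 (2266 and 1187) lies between.

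No tRNA, snoRNA or snRNA gene was near these summits: the nearest lay 6789 bp from the mex-1 summit, 27419 bp from the nos-3 summit and 103768 bp from the spn-4 summit. For each of the 3 genes, 1 or more neighbours shared the summit, as was the case for 55.5% of the 1192 genes with a reproducible promoter summit. The peaks give no means to assign such a summit to either gene.

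For each member with a reproducible promoter summit, the genes most like it were those nearest by the log2 signals in the 2 replicates, over 1191 genes. They were F25H9.6 and F25H9.7 for mex-1, which share a summit with signals of 192 and 223. For spn-4 they were sec-61.B and trap-3, both of protein entry into the endoplasmic reticulum, which share a summit with 29.0 and 69.02. For nos-3 they were immt-1, a gene of the mitochondrial inner membrane, with 55.6 and 52.4, and Y54G11A.17, with 55.9 and 51.5.

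The relaxed lists added mex-3 and pie-1. In the pooled list 5 of the 10 genes had a promoter summit, mex-1, mex-3, pie-1, spn-4 and nos-3, where 29.4% of all genes do. The same 5 had a promoter summit in the list of replicate 1, where 30.8% of genes do, and in that of replicate 2, where 28.2% do. A promoter summit in each of the lists of replicate 1 and replicate 2 was present for these 5 members and for 19.9% of all genes. The median highest promoter signal over the genes with a summit was 46.5 in the pooled list, 23.9 in replicate 1 and 26.6 in replicate 2.

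The gene mex-3, whose KH protein represses the mRNA of the posterior fate gene pal-1, had the strongest pooled summits inside a window or gene body among the members without a reproducible promoter peak. A summit in an intron, 7 bp before an internal transcript start and 1405 bp from the gene start, had a pooled signal of 66.3 and rank 2366. An intron summit 3567 bp from the gene start had 66.3 at rank 2370. Both fell short of the 86.3 at which the reproducible set ends, whereas spn-4, with the weakest of the 3 members' promoter summits inside the set, had 97.5. By the strongest overlapping peak, the replicates differed on which of the pair was stronger. Near the internal start, replicate 1 had 40.5 at rank 1739, with its summit 1277 bp from the gene start. Replicate 2 had 29.0 at rank 3929, with its summit at 1405 bp. At the other, replicate 1 had 19.3 at rank 10414, with its summit at 3282 bp. Replicate 2 had 51.5 at rank 1188, with its summit at 3530 bp. Overlap alone does not show that the replicates' peaks are the same summits. The gene is the longest of the 10, at 6986 bp, and its upstream neighbour lies 6383 bp away, with no pooled summit in that direction within 3000 bp.

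In pie-1, whose product keeps germline blastomeres transcriptionally silent, the pooled promoter summits lay inside the gene, in the window of an internal transcript start. The stronger, in a coding exon, had a pooled signal of 43.1 at rank 6247, with 23.1 at rank 6593 in replicate 1 and 20.1 at rank 10742 in replicate 2. These values are below the median of genes with a promoter summit in each list. The window of the first pie-1 start held no pooled summit and 1 in replicate 1, of 22.8 at rank 6771.

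mex-5, mex-6, pos-1, oma-1 and oma-2 had no promoter summit in any of the 4 lists. MEX-5 and MEX-6 are closely related proteins that act together at the anterior of the zygote, OMA-1 and OMA-2 are redundant proteins of oocyte maturation, and POS-1 acts in the posterior lineage. For mex-6 there was no summit within 3000 bp of the gene in any list, as for 17.6% of all genes. Its nearest pooled summit lay 28998 bp upstream of its start. Its partner mex-5 had 1 weak summit inside the gene, in a coding exon, in replicate 1 only, with a signal of 19.99 at rank 9509. Inside pos-1 a summit in a coding exon had 32.7 in the pooled list at rank 12335 and 17.5 in replicate 2 at rank 15168 of 15188, and none in replicate 1. Inside oma-1 the list of replicate 1 had a summit of 16.1 at rank 15839, and oma-2 had none in any list. Absence from a list says that no peak was listed, not that none could be found at greater depth.

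**Figure D2:**
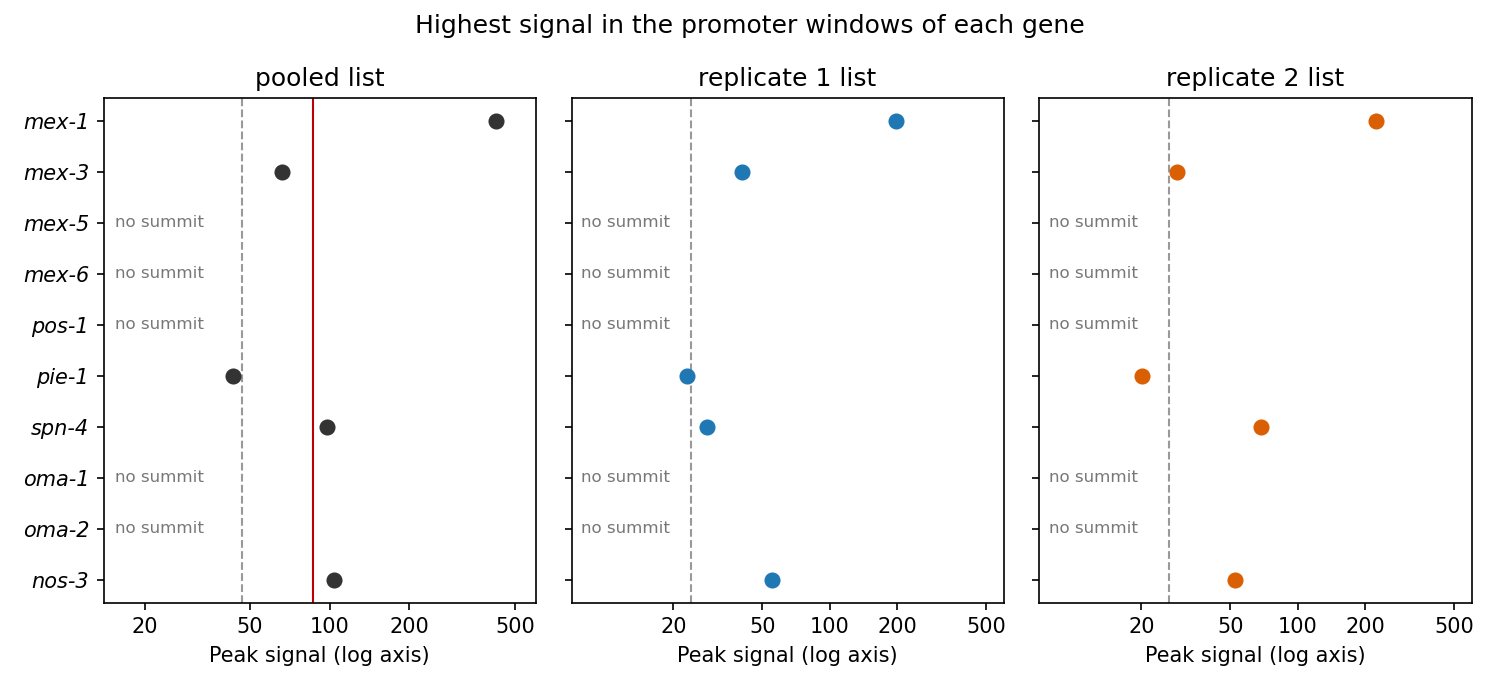
The points give the highest peak signal in the promoter windows of each gene (horizontal log axis), in the pooled list and in the list of each replicate, and genes without a listed summit are marked so. Dashed lines mark the median over all genes with a promoter summit (46.5, 23.9 and 26.6) and the solid line marks the lowest signal of the reproducible set (86.3). mex-1, nos-3 and spn-4 lie above the solid line, mex-3 and pie-1 below it.

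Gene bodies held none of the reproducible summits. The share among all genes is 1.81%, so 0 of 10 is not a result about these genes. Relaxed body summits were present in 5 of 10 genes in the pooled list, against 27.2% of all genes, in 6 against 31.1% in replicate 1 and in 4 against 27.0% in replicate 2. With a promoter or a body summit counted, 6 of 10 genes were marked in the pooled list, against 42.3% of all. The members had a median length of 2244.5 bp and all genes one of 2027 bp. Of the 10 pooled body summits, 6 also lay in a promoter window of their gene, so the body and promoter counts overlap. By feature, 5 of the 10 lay in coding exons, 4 in introns and 1 in a 5′ UTR. The same split over all genes was not counted. The strongest of the 10 were intron summits of mex-3, and outside mex-3 none exceeded 43.1.

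**Figure D3:**
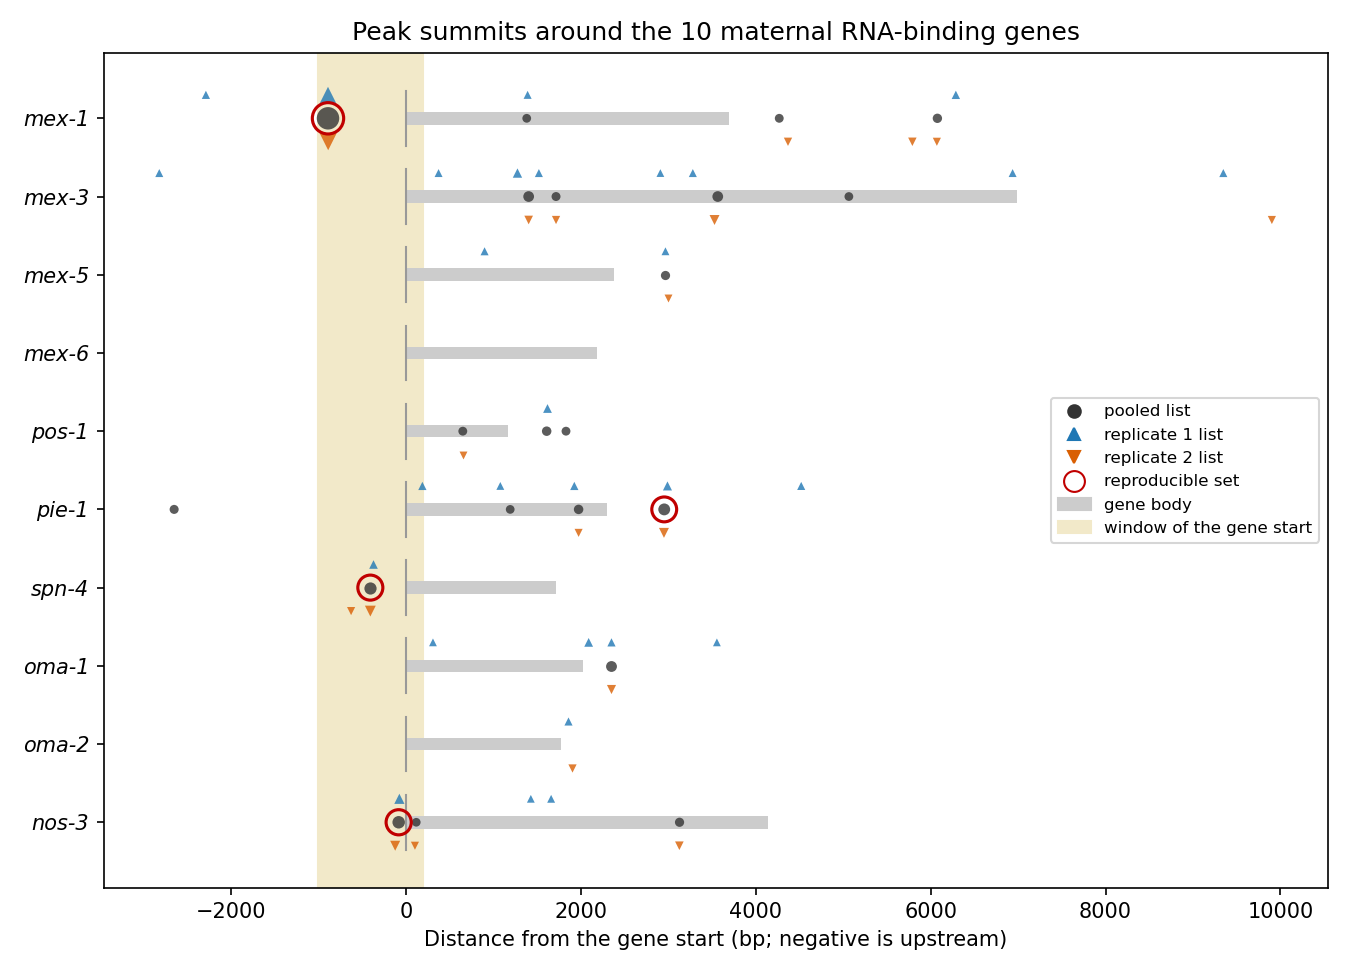
Summits of the 4 lists are shown by distance from the gene start (bp, negative is upstream) for each of the 10 genes, with marker area growing with signal, grey bars for gene bodies and shading for the promoter window of the gene start. Reproducible peaks, ringed, lie upstream of mex-1, spn-4 and nos-3 and beyond the end of pie-1. The row of mex-6 holds no summit.

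Past the ends of several genes there were summits again, a region that was looked at only after the values were seen. Within 1000 bp beyond the gene end, 5 of the 10 genes had a pooled summit, mex-1, mex-5, pos-1, pie-1 and oma-1, where 15.9% of all genes have one. In the list of replicate 1 these were mex-5, pos-1, pie-1, oma-1 and oma-2, against 17.8% of all genes. In that of replicate 2 they were mex-1, mex-5, pie-1, oma-1 and oma-2, against 15.5%. The reproducible set had such a summit for pie-1 alone, against 1.73% of all genes.

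For mex-5, pie-1, oma-1 and oma-2 the summits lay in a promoter window of a neighbouring gene. The one beyond pie-1, at 12429848 on chromosome III and 653 bp past the gene end, had a pooled signal of 90.0 at rank 1352, with 35.6 at rank 2266 in replicate 1 and 51.5 at rank 1187 in replicate 2. It is 219 bp upstream of the start of snr-6, which encodes an Sm protein of spliceosomal particles, and in the window of Y49E10.16. Beyond oma-1, a pooled summit of 68.8 at rank 2191 lay 318 bp past the gene end and in the window of spr-2. Replicate 2 had it at 36.6 and rank 2255. Replicate 1 had a peak of 22.5 at rank 7074 with a summit 329 bp past the gene end. The strongest overlapping peak of replicate 1, 31.1 at rank 3098, had its summit 68 bp past the gene end. Beyond oma-2, no pooled summit was listed, but replicate 1 had 20.8 at rank 8595 and replicate 2 had 23.0 at rank 7509, both in the window of vars-1, for valyl-tRNA synthetase. The weak pooled summit of 38.3 beyond mex-5 was in the window of W02A2.8. Those beyond mex-1 (32.4) and pos-1 (43.1 and 32.3) were inside acbp-6 and lmd-3 and in no promoter window.

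The arrangement of the genes was also compared after the values were seen. The nearest upstream protein-coding gene pointed the other way across a gap of at most 2000 bp for 5 of the 10 members, mex-1, mex-5, pos-1, spn-4 and nos-3, as it does for 4993 genes in all. The gaps were 1092 bp for mex-1, 529 bp for mex-5, which faces the cohesin gene rec-8, 603 bp for pos-1, which faces the vacuolar ATPase gene vha-18, 547 bp for spn-4 and 237 bp for nos-3. All 3 members with a reproducible promoter summit were among these 5. Of all genes with such a neighbour 12.5% had a reproducible promoter summit, and of the other genes 3.78% did. A summit in such a gap can fall in the windows of both genes and then marks both. What this adds to the 12.5% was not tested. The 5 members without such a neighbour had 0 reproducible promoter summits, which is no result where 3.78% of those genes are marked. In the pooled list, 3 of the 5 members with such a neighbour had a promoter summit, against 41.6% of all genes with one. Of the 5 members without, 2 had a pooled promoter summit, against 25.4% of the other genes. mex-5 and pos-1 have such a neighbour and no promoter summit.

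Base composition and the 4 6-mers were also read in the promoter windows. In the window of the gene start, median GC was 35.2% over the 10 members, from 33.2% in pie-1 and oma-1 to 37.2% in mex-5, and 34.9% over all genes. TAATTA was in 6 of the 10 windows and in 47.3% of all 19972 windows of this kind. TAATGA was in 2 of 10 and in 56.2% of all, and either core in 7 of 10 and 76.3% of all. GAGAGA was in 5 of 10 and in 50.9% of all, and GGCCAC in 0 of 10 and 17.05% of all. Of the members with a reproducible promoter summit, mex-1 and spn-4 had TAATTA and nos-3 had TAATGA in this window, and none of the 3 had GAGAGA or GGCCAC.

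Other genes of the same biology were counted from 5 lists, written with earlier results of these data known. Of 62 genes found in the annotation, 5 had a reproducible promoter summit, or 8.06%, and 22 had a pooled one, or 35.5%, against 5.97% and 29.4% of all genes. nos-2 stands in 2 of the lists and was counted once. Among 25 other RNA regulators of the germline and embryo, 3 had a reproducible summit. The highest signal was that of atx-2, for the worm ataxin-2, with a pooled signal of 415 at rank 36, 65 bp upstream, with 259 at rank 11 in replicate 1 and 158 at rank 107 in replicate 2. A further reproducible summit of atx-2, 632 bp upstream, had 254 at rank 181, with 101 at rank 281 in replicate 1 and 164 at rank 95 in replicate 2. ecps-1 shared both summits. larp-1, for a La-related protein, had 165 and shared its summit with wip-1, and ifet-1, for a partner of the translation factor eIF4E, had 149 and shared its summit with the ribosomal protein gene rps-1, F56F3.10 and F56F3.11.

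Of 6 other CCCH finger genes, 0 had a reproducible promoter summit and 1, ccch-1, had a pooled one, with a signal of 41.5. Of 11 genes for P granules, the germline granules that several of the members' proteins associate with, 0 had a reproducible promoter summit. A pooled one was listed for 3, pgl-3 (58.9), meg-2 (61.8) and meg-4 (40.4). Of 13 polarity and oocyte-to-embryo genes, 1 had a reproducible promoter summit, pkc-3, for an atypical protein kinase C, with 91.3, and it shared the summit with F09E5.22. Its replicates ranked it differently, with 64.7 at rank 705 in replicate 1 and 31.8 at rank 3135 in replicate 2. Another 5 of these 13 had a pooled promoter summit below the set, between 45.5 in par-1 and 74.6 in par-2. With so few genes in each list, none of these counts was set against another by a test, and a count of 0 among 6 or 11 genes is no result where 5.97% of all genes are marked.

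Among 8 genes whose maternal mRNAs the members are known to bind or regulate, apx-1 alone had a reproducible promoter summit. It encodes a Notch ligand of the early embryo, and its summit lay 132 bp upstream with a pooled signal of 124 and rank 752, 65.3 at rank 690 in replicate 1 and 58.3 at rank 935 in replicate 2. No other gene's window held that summit. The Notch receptor gene glp-1 had a pooled promoter summit of 41.6 and the endomesoderm factor gene skn-1 one of 30.02. pal-1, nos-2, zif-1, mom-2 and neg-1 had no pooled promoter summit. Inside gene bodies, 4 of the 62 genes held a reproducible summit, larp-1, par-1, mbk-2 and apx-1, against 1.81% of all genes. A body summit is counted over the whole length of a gene, and the lengths of the 62 genes were not compared with those of all genes. No test was run on this count.

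**Figure D4:**
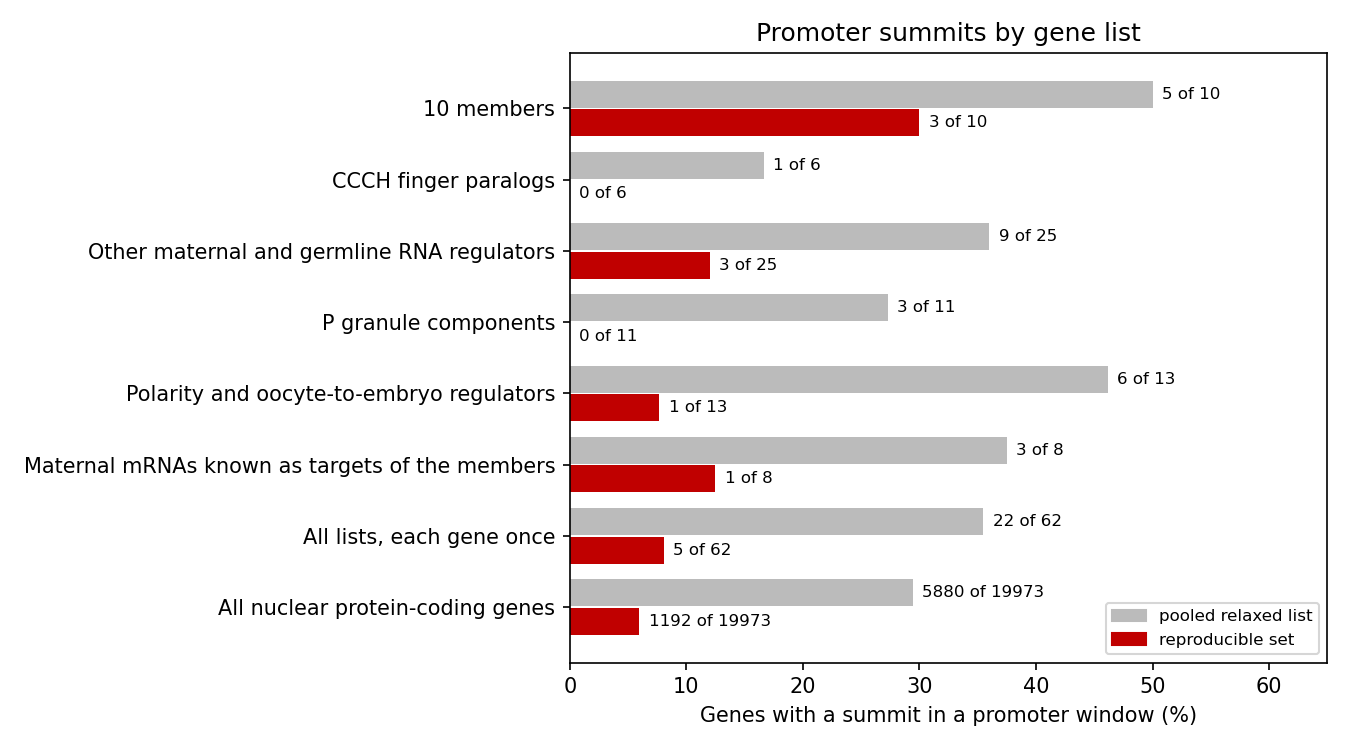
Bars give the share of genes (%) with a summit in a promoter window, in the pooled relaxed list (grey) and in the reproducible set (red), for the 10 members, 5 lists of related genes, these lists together and all nuclear protein-coding genes, with counts beside each bar. The members stand at 3 of 10 and 5 of 10, the lists together at 5 of 62 and 22 of 62, and all genes at 1192 and 5880 of 19973.

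How many of the 10 genes were marked depended on the rule. Among the peaks at or above the set's median signal of 126, which mark 3.42% of all genes, only mex-1 was left. In windows that reach 500 bp upstream, which mark 4.69% of genes, nos-3 and spn-4 were left and mex-1 was lost. Given to the nearest start alone, summits marked 4.31% of genes and nos-3 only. mex-1, nos-3 and spn-4 were all marked in windows of 2000 bp (7.75% of genes), by any overlap of the peak with the window (6.47%), and by the 1453 strongest peaks of replicate 2 (5.94%). The strongest peaks of replicate 1 (5.80%) marked mex-1 and nos-3 but not spn-4.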

How the data were processed

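Peak calling was done by the authors. Per the file headers, each relaxed list was derived from alignments and a control, and the optimal set from the relaxed lists of both replicates and of the pooled reads. The peak signal, column 7 of each deposited list, is the caller's own value. The sources used here do not give caller, aligner, filters or threshold. No file gives counts, so depth and precision are unknown.

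Summits on ce11 (column 2 + column 10 + 1, so 1-based) were placed in windows around the transcript starts of Ensembl release 115 for WBcel235, and all 10 symbols matched. Where a replicate's value is given for a pooled peak, it is that of the strongest peak overlapping by 1 bp. Exceptions are the 5′ UTR summit of nos-3 and the nearer replicate 1 summit beyond oma-1, which were read by position. Mitochondrial peaks, 23 in the reproducible set, count in ranks but not in shares of genes. The ce10 lists were not used. Members, gene lists and 6-mers were chosen with earlier results of these data known. All members, the genes sharing their reproducible summits and every listed gene with a reproducible promoter summit are named, and other listed genes were named after their values were seen. The symbol gla-1 was not in the annotation. The nos-3 stretch was trimmed to leave out UTR bases. Because the lists that chose the members are the only readout, no test was run. The assignment of summits to windows was tested on simulated data. The scripts ran in Python 3.11.15, with pandas 2.3.3, numpy 2.4.6 and, for plots, matplotlib 3.10.9.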

Additional observations from a re-analysis of the deposited data

How the results depend on the processing

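With 2 replicates of 1 group there was no contrast, and counts were compared between settings chosen with earlier results known. The count of 3 members with a reproducible promoter summit fell to 1 among peaks at or above the median signal and to 1 with the nearest start alone. It was 2 to 3 without either replicate. The 5 genes of the wider lists became 3 above the median signal, 3 with windows of 500 bp, 8 with windows of 2000 bp and 3 with the nearest start alone, and 4 to 5 without either replicate. The 5 members with a pooled relaxed promoter summit stayed between 4 and 5 in every setting run for them. The 5 members with a relaxed promoter summit in both replicates became 3 with the nearest start alone. The 0 members with a reproducible summit in the gene body became 1 when any overlap counted (nos-3), and were 0 to 1 without either replicate, mex-3 being the gene added with replicate 2 alone. The lists give no depth, so what depth limits was not tested. No paired analysis was possible because there was only 1 group.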
